A study of Mus musculus with 2 samples.

Results

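Genes of Polycomb, chromatin remodelling and histone modification were described in 2 samples of mouse cells, read with a 1-colour oligonucleotide microarray. The members were chosen by name, from the gene symbol that the platform gives each probe. The symbol had to begin with, or be, that of a known family, such as Ezh, Cbx, Pcgf, Kdm, Kmt, Setd, Hdac, Sirt, Kat, Smarc, Chd, Brd, Prdm, Prmt, Uhrf or Dnmt. Dnmt3b, Dnmt3l and Mbd2 were set aside. This gave 146 of the 11484 genes with a symbol on the array, read by 162 probes. The parental cells were of embryonic origin, strain C57/ICR, at passage 1 and in medium with fetal bovine serum. The cells of the other sample carried the same strain and stage labels, were at passage 5 and in ES medium, and are named in the labels as stem cells generated by a small molecule (the generated cells from here on). The labels name no compound, dose or donor tissue. With 1 column of values per sample there was no replicate, no test between the samples was possible, and passage, medium and treatment differed together. Of the families searched, Dnmt3a, Tet1, Tet2, Hdac1, Hdac2, Cbx1, Cbx3 and Suv39h1 were not analysed here.

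DNA in the nucleus is wound around histones, and the genes described here encode proteins that write, read or erase chemical marks on histones and DNA or that move nucleosomes. Polycomb repressive complex 2 (PRC2) methylates histone H3, Polycomb repressive complex 1 (PRC1) binds that mark and ubiquitinates histone H2A, and together they keep developmental genes silent. In embryonic stem cells these complexes hold lineage genes in a poised state, while SWI/SNF and CHD remodellers and the COMPASS methyltransferases act at active genes.

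The identity of both samples was read from marker genes. Of 10 pluripotency markers 9 were measured, 7 of them under the floor of detection used here in the parental cells, and 8 were 2-fold or more higher in the generated cells. Nanog, a core pluripotency factor, was near the floor in both samples (77.7 and 94.7). All 4 measured fibroblast markers were lower by 2-fold or more in the generated cells, with a summed intensity of 108554 in the parental cells and 688 in the generated cells. Of 6 measured macrophage markers 4 were lower and 1, Laptm5, was higher, and C1qa and C1qc were under the floor in the generated cells. Their summed intensity was 7729 and 12941, of which Laptm5 made up 1287 and 12204. In such bulk samples, fewer cells of a type and less RNA per cell cannot be told apart. The part of cell composition in the differences below was not tested.

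Chromatin genes were more often brighter than dimmer in the generated cells. Intensity here is the deposited normalised probe signal on a linear scale, averaged over the probes of a gene on the log2 scale, and differences are generated minus parental cells. As floor of detection the 25th percentile of each column was taken (93.8 parental, 93.4 generated). Of the 146 members, 140 were above it in at least 1 sample and 6 were dim in both. Among the 140, 44 (31.4%) were higher by at least 2-fold in the generated cells, where the share over all 9766 genes above the floor was 22.1%. In the other direction 23 members (16.4%) were lower by 2-fold or more, against 22.6% of all genes. The remaining 73 differed by less than 2-fold, 38 of them by less than 0.5 on the log2 scale. The median log2 difference of the 140 members was 0.39, against 0.12 for all genes above the floor, and 0.35 against 0.07 when dim genes were kept. Where a value under the floor was set to the floor, 41 members were higher and 23 lower. Genes above the floor include those that passed through their brighter sample alone, so these counts describe the measured members and support no further statement.

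**Figure D1:**
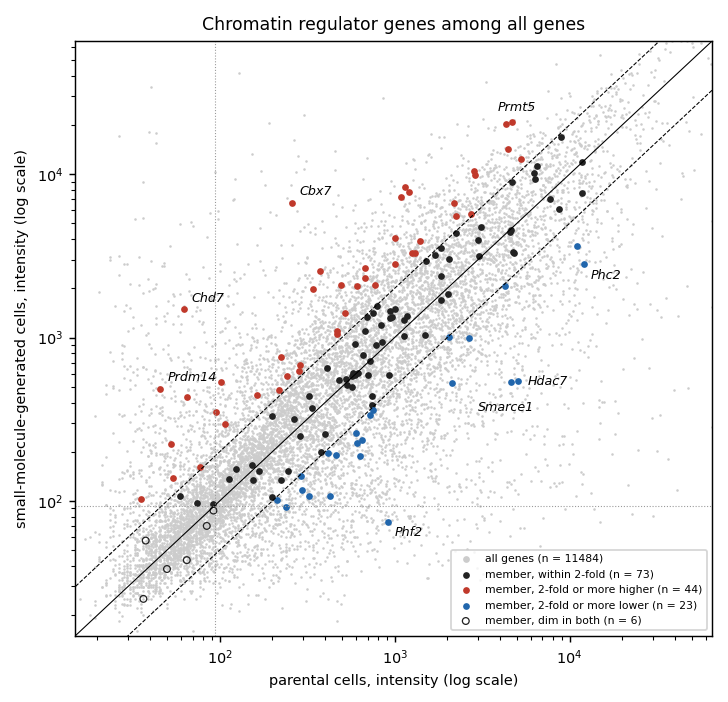
Intensity of each gene in the parental cells (x axis, log scale) and the generated cells (y axis, log scale), 1 array column each. Grey points are all 11484 genes, red and blue points the 44 members higher and 23 members lower by 2-fold or more, black points the other 73, open circles the 6 dim members, the solid line equal values, dashed lines 2-fold and dotted lines the floors of 93.8 and 93.4. Cbx7, Chd7 and Prdm14 stand farthest above the lines, and Phf2, Hdac7 and Smarce1 farthest below.

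At 4-fold or more, 15 members (10.7%) were higher, against 7.52% of all genes, and 6 (4.29%) were lower, against 10.3%. Of the 15, 4 had a parental value under the floor, and counting bounds 14 were higher and 6 lower, Arid3b being the one that no longer passed. The largest difference was that of Cbx7, a PRC1 subunit that reads the PRC2 mark, at 260.2 in the parental cells and 6686 in the generated cells, 25.7-fold higher. Chd7, a remodeller that binds enhancers, was at 62.9 (parental, under the floor) and 1489 (generated), at least 15.9-fold higher. Prdm14, a zinc finger regulator of naive pluripotency and germ cells, was at 45.9 and 486, at least 5.19-fold higher. Chd7 and Prdm14 were thus undetected in the parental cells by this floor, whereas Cbx7 was above it in both samples. Lower by the largest step was Phf2, a demethylase of the PHD finger family, at 913 in the parental cells and 74.4, under the floor, in the generated cells, at least 9.77-fold lower. Hdac7, a class IIa deacetylase known from endothelial cells, was at 5102 and 541, 9.43-fold lower. Smarce1, the HMG-box subunit BAF57 of SWI/SNF, was at 4607 and 531, 8.68-fold lower. The remaining members at 4-fold or more are given with their roles below. All 21 members past 4-fold rest on 1 probe each. The error of a probe was taken from the 612 genes read by a pair of detected probes. The SD of the differences within pairs, scaled to a single probe, was 1.05 (log2), or 2.07-fold.

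**Figure D2:**
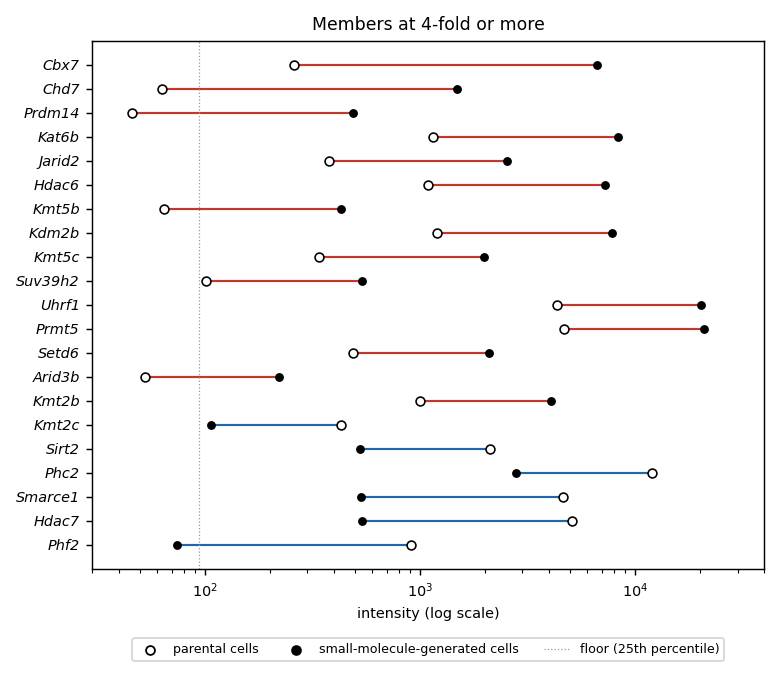
Intensity (x axis, log scale) of the 21 members that differed by 4-fold or more, in the parental cells (open circles) and the generated cells (filled circles), 1 value each. Red lines mark the 15 higher members and blue lines the 6 lower ones, ordered by log2 difference, and the dotted line is the floor of 93.8 in the parental cells. The open circles of Chd7, Prdm14, Kmt5b and Arid3b and the filled circle of Phf2 lie under the floor.

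Genes of PRC2 were higher in part, with its catalytic and scaffold genes going both ways. Of 8 measured genes 4 (50%) were higher and 2 (25%) lower by 2-fold or more, against 22.1% and 22.6% of all genes. The median log2 difference was 1.09. Jarid2, a DNA-binding accessory subunit that recruits PRC2 in embryonic stem cells, was at 376 in the parental cells and 2540.0 in the generated cells, 6.75-fold higher. Eed, the subunit that binds the methylated histone, was at 2894 and 9895, 3.42-fold higher. Both methyltransferases were higher, Ezh2 by 2.46-fold (2239 and 5517) and Ezh1 by 2.41-fold (242 and 583). The core subunit Suz12 went the other way and was 2.04-fold lower (2037 and 1001), as was the accessory subunit Phf19, 2.31-fold lower (603 and 261). Its relatives Mtf2 (757 and 1418, 1.87-fold higher) and Phf1 (266.5 and 316) differed by less than 2-fold. The 3 core genes thus did not share a direction, as Eed and Ezh2 were higher and Suz12 lower. Differences of about 2-fold, such as those of Suz12, Phf19 and Ezh2, were close to 1 SD of a single probe. With an offset of 50 the difference of Suz12 came just under 2-fold (log2 -0.99). The value of Ezh1 is a mean of 2 probes, whose log2 differences were 0.46 and 2.07.

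The promoters of Jarid2, Eed and Suz12 are shown because these PRC2 genes went in opposite directions. For Jarid2, which has a pair of annotated starts, the first is shown. Each is the 250 bases before the annotated start, 5′ to 3′ on the gene's strand, from RefSeq on GRCm38.p6, and capitals mark a match to an E2F-type motif. Only the promoter of Suz12, the lower of the 3, holds one.
Jarid2 (chr13:44730524-44730773, plus strand): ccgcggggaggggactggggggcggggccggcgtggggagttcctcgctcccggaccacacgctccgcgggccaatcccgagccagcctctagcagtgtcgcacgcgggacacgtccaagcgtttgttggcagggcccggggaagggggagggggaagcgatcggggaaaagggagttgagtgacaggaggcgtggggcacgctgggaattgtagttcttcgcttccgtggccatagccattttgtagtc
Eed (chr7:89980977-89981226, minus strand): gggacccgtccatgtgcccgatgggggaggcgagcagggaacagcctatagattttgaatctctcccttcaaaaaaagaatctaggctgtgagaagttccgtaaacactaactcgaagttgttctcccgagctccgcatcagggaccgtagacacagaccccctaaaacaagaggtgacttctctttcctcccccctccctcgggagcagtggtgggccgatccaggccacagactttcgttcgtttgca
Suz12 (chr11:79992856-79993105, plus strand): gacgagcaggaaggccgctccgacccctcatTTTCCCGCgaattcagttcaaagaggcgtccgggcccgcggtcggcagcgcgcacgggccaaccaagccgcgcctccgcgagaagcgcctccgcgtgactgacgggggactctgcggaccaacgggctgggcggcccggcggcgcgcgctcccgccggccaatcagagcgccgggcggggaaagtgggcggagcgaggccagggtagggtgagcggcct

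A promoter window was found for all but 23 of the 146 members, 165 windows in all because some genes have several starts. The E2F-type motif was searched on both strands as TTTCCCGC, TTTCGCGC, TTTGCCGC or TTTGGCGC, letters typical of genes regulated with the cell cycle. It was found in 10 of the 165 windows (6.06%), against 2.96% of the 11565 windows of genes on the array and 1.86% of all 32851 windows. By direction, 5 of 54 windows of members higher by 2-fold or more held it (9.26%), those of Dnmt1, Uhrf1, Kmt5c, Kat2a and Smarcd1, and 2 of 27 windows of lower members (7.41%), those of Suz12 and Phf19. Among members within 2-fold it was in 3 of 79 windows (3.80%). The NRF1-type motif GCATGCGC was in 0 of 54, 1 of 27 and 9 of 79 windows of the same 3 groups, against 3.60% of windows of genes on the array, and the ETS-type motif CCGGAAG in 5, 2 and 9 windows, against 11.6%. The letters GCGC are shared by the first of these motifs in part (TTTCGCGC and TTTGGCGC) and by GCATGCGC. Members had CpG-rich promoters, with a median of 21 CpG per window against 13 for genes on the array and 6 for all windows. That median was 22 in higher members and 16 in lower ones. A match describes letters and no binding.

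Cbx7 was the only one of the 4 measured Cbx genes of PRC1 past 2-fold. Of 12 measured genes 2 (16.7%) were higher and 3 (25%) lower by 2-fold or more, against 22.1% and 22.6% of all genes. The median log2 difference was 0.07. Cbx proteins compete for 1 place in PRC1, and beside Cbx7 the genes Cbx8 (852 and 944), Cbx6 (3021 and 3144) and Cbx2 (223 and 134.0) all differed by less than 2-fold. Pcgf2, a RING finger partner of the ubiquitin ligase, was the other higher member, at 1007 in the parental cells and 2805 in the generated cells, 2.79-fold. The measured polyhomeotic genes, Phc2 and Phc3, whose proteins form the polymers of canonical PRC1, were lower. Phc1 was not analysed here. Phc2 was at 12044 and 2809, 4.29-fold lower, and Phc3 was at 613 and 226, 2.72-fold lower. Pcgf3, which marks a variant complex, was 2.10-fold lower (213 and 102). The variant complex genes Pcgf1 (524 and 555), Pcgf5 (675 and 1096.5) and Pcgf6 (970.4 and 1330.1), together with the ligase gene Ring1 (247 and 153), differed by less than 2-fold. Kdm2b, the demethylase that brings variant PRC1 to CpG islands, was 6.50-fold higher (1201 and 7809). Asxl1, a cofactor of the enzyme that removes the PRC1 mark, was 2.70-fold higher (521 and 1409).

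**Figure D3:**
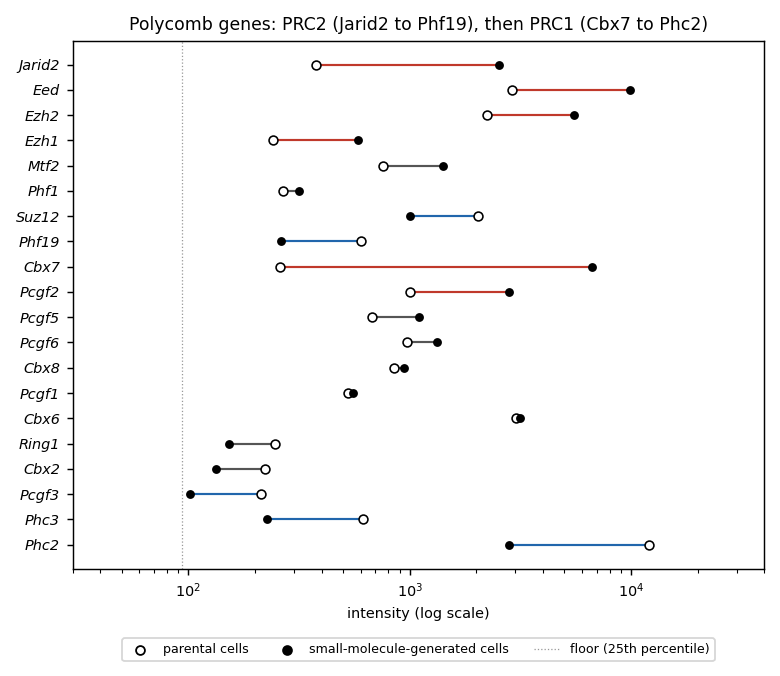
Intensity (x axis, log scale) of the 8 PRC2 and 12 PRC1 genes in the parental cells (open circles) and the generated cells (filled circles), 1 value each. Lines are red for 2-fold or more higher, blue for 2-fold or more lower and grey for less than 2-fold, and the dotted line is the floor of 93.8 in the parental cells. The lines of Cbx7 and Jarid2 are the longest to the right, and that of Phc2 the longest to the left.

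Partners of these complexes that the naming rule leaves out were read from a list of chromatin genes, 51 of which were measured and 49 above the floor. Of the 49, 22 (44.9%) were higher and 5 (10.2%) lower by 2-fold or more, where 22.1% and 22.6% of all genes were higher and lower. The median log2 difference of the 49 was 0.62. The list was chosen with earlier results of these data known, so these shares describe the listed genes alone. Epop, a PRC2-associated protein of embryonic stem cells, had the largest difference, at 274 in the parental cells and 10259 in the generated cells, 37.4-fold higher. L3mbtl2, a subunit of the Pcgf6 variant PRC1, was 6.89-fold higher (688 and 4746). Against these, Rnf2, the main ubiquitin ligase of PRC1 in embryonic stem cells, was 6.29-fold lower (1050.0 and 167). Aebp2, an accessory subunit of PRC2, was 2.09-fold higher (160.1 and 334.6), and the histone-binding subunit Rbbp7 was at 693 and 854. The PRC1 partners L3mbtl2 and Rnf2 were thus on opposite sides. Among partners with other roles, the assembly factor gene Chaf1a was 5.00-fold higher (969 and 4844) and the histone chaperone gene Asf1b at least 4.22-fold lower (394 and 72.2). Rcor2, of a Kdm1a complex in embryonic stem cells, was 5.42-fold higher (161 and 872). The methyltransferase genes Smyd5 (1075 and 4811) and Nsd1 (357 and 1451) were 4.47-fold and 4.06-fold higher.

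**Figure D4:**
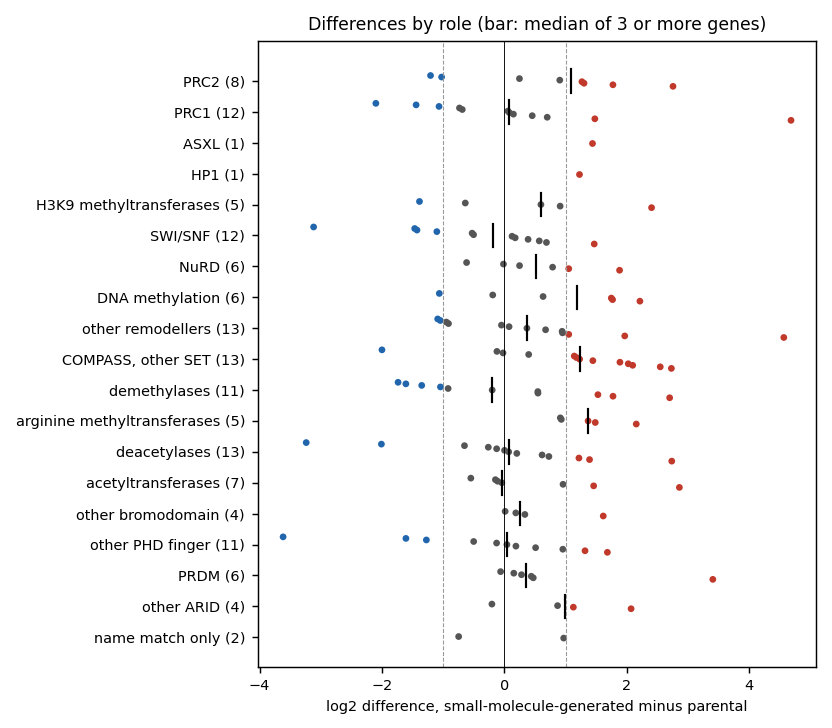
Log2 difference, generated minus parental cells (x axis), of the 140 members above the floor in at least 1 sample, by role (y axis, number of genes in brackets). Each point is 1 gene, red at 2-fold or more higher, blue at 2-fold or more lower and grey otherwise, a vertical bar marks the median of roles with 3 or more genes, and dashed lines mark 2-fold. The medians of PRC2, COMPASS and other SET domain genes, arginine methyltransferases and DNA methylation genes lie above 1. Those of SWI/SNF, demethylases and acetyltransferases lie below 0. The arginine methyltransferase median (1.37) is the value of Prmt8, whose parental signal lay under the floor. Counting bounds, that median was 0.93 and thus below 1.

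COMPASS and other SET domain genes had the largest share of higher genes among the roles with more than 5 members. Ash2l and Wdr5, core subunits without a SET domain, are counted here. Ezh1, Ezh2 and the H3K9 methyltransferases are counted under other roles. Of 13 measured genes 9 (69.2%) were higher and 1 (7.69%) lower by 2-fold or more, against 22.1% and 22.6% of all genes. The median log2 difference was 1.23. Genes of the COMPASS family, which methylates histone H3 at promoters and enhancers, accounted for most of them. The shared core subunits Ash2l (2842 and 10519, 3.70-fold) and Wdr5 (773 and 2105, 2.72-fold) were higher. Of the catalytic subunits, Kmt2b was 4.07-fold higher (1000.3 and 4069), Setd1a 2.34-fold (288 and 675) and Kmt2d 2.26-fold (466 and 1054). Kmt2c, the paralog of Kmt2d in enhancer complexes, was the lower member, 4.0-fold, at 428 in the parental cells and 107 in the generated cells. Its fold lay at the edge of the 4-fold rule. Partners outside the naming rule, Dpy30 (1938 and 4963, 2.56-fold) and Rbbp5 (629 and 1324, 2.11-fold), were higher too, whereas the scaffold gene Men1 was at 2925 and 1578.

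The enzymes of histone H4 lysine methylation split by step. Kmt5a, which adds the first methyl group, was at 4612 and 4541. The genes of both enzymes that add further groups were higher, Kmt5c by 5.84-fold (339.7 and 1985) and Kmt5b, whose parental value lay under the floor, by at least 4.59-fold (64.9 and 430.1). Setd6, a methyltransferase of non-histone proteins, was 4.28-fold higher (491 and 2098) and Setd4 2.21-fold higher (283 and 625). Setd2, which methylates histone H3 along transcribed genes, and Setd5 were within 2-fold (3016 and 3972, 167 and 154).

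Among the 5 measured H3K9 methyltransferases, which mark heterochromatin, 1 (20%) was higher and 1 (20%) lower, against 22.1% and 22.6% of all genes. Suv39h2 was at 102 (parental, just above the floor) and 538 (generated), 5.30-fold higher. Setdb2 went to the floor, from 239.8 to 91.7, at least 2.57-fold lower. Ehmt1 (1705 and 3206, 1.88-fold higher) and Ehmt2 (3131 and 4736), whose proteins form 1 enzyme, and Setdb1 (923.5 and 593), which silences retroelements, differed by less than 2-fold. Trim28, the corepressor that recruits Setdb1, was a partner at 5966 and 25873, 4.34-fold higher. Cbx5, the HP1 protein that binds the H3K9 mark, was 2.34-fold higher (5279.7 and 12329.6).

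Among arginine methyltransferase genes, the 5 measured Prmt genes were all brighter in the generated cells. Past 2-fold were 3 of the 5, or 2 when values under the floor were set to it. The partner Carm1, also an arginine methyltransferase, went the other way (2530 and 2131, 1.19-fold lower). Prmt5, an enzyme of symmetric dimethylation needed in pluripotent cells, was at 4699.8 in the parental cells and 20932 in the generated cells, 4.45-fold higher. Prmt9 was 2.80-fold higher (1390.2 and 3891), Prmt1 1.91-fold (4709 and 8973) and Prmt3 1.88-fold (8933 and 16833). Prmt8, an enzyme of neurons, was at 53.9 (parental, under the floor) and 139 (generated), so that its fold had a lower bound of 1.48.

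Histone demethylase genes were divided. Of 12 measured genes, 11 were above the floor. Of the 11, 3 (27.3%) were higher and 4 (36.4%) lower, against 22.1% and 22.6% of all genes. Counting bounds 2 were higher, and the median log2 difference was -0.20. Beside Kdm2b, Kdm5b, an H3 demethylase of embryonic stem cells, was 3.42-fold higher (674 and 2305). Its sex-linked paralogs were lower, Kdm5c on the X by 2.55-fold (297 and 117) and Kdm5d on the Y by 2.06-fold (292 and 142). Of the pair that removes the PRC2 mark, X-linked Kdm6a was 3.33-fold lower (632 and 189.6), and Kdm6b was at 35.6 and 103, with a bound of 1.09-fold. Kdm4a, which acts on H3K9 and H3K36, was 3.05-fold lower (11009 and 3607.5), whereas Kdm4b was at 2058 and 3010.1. The lysine-specific demethylase Kdm1a was at 6386 and 9327, 1.46-fold higher, and Kdm1b at 379 and 200.4. Of the paralogs, those of the Kdm5 family passed 2-fold in both directions, each read by 1 probe.

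Of 7 acetyltransferase genes 2 (28.6%) were higher and none was lower, against 22.1% and 22.6% of all genes. The other 5 were within 2-fold, as were 5398 of all 9766 genes above the floor. Kat6b, the MORF enzyme, was at 1145 in the parental cells and 8306 in the generated cells, 7.26-fold higher, while its paralog Kat6a was at 4808 and 3289. Kat2a, the GCN5 enzyme, was 2.75-fold higher (163 and 448), and Kat14, a subunit of an associated complex, 1.94-fold (2239.8 and 4353). The coactivator Ep300 (1137 and 1027.5), the remodelling ATPase Ep400 (621 and 604) and Kat8 (1829.8 and 1694) lay within 1.11-fold. Hat1, a partner that acetylates new histones before assembly, was 5.63-fold higher (8323 and 46862).

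Of 13 deacetylase genes 3 (23.1%) were higher and 2 (15.4%) lower, against 22.1% and 22.6% of all genes. Hdac6, a cytoplasmic deacetylase of tubulin, was 6.66-fold higher (1094 and 7287) and Hdac4, of class IIa like Hdac7, 2.33-fold higher (469 and 1092). Hdac3 (581 and 609.9) and Hdac5 (1177 and 1354) differed little, and Hdac8 was at 401 and 255. Among the sirtuins, the cytoplasmic Sirt2 was 4.03-fold lower (2115 and 525) and the mitochondrial Sirt3 2.62-fold higher (1256 and 3296). Nuclear Sirt6 (199 and 329) and Sirt7 (2028 and 1858) were within 2-fold. The class IIa genes Hdac4 and Hdac7 were thus on opposite sides of 0, as were Sirt2 and Sirt3.

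Acetylated histones are read by bromodomain proteins. Of 4 other members 1 (25%) was higher by 2-fold or more and none lower, against 22.1% and 22.6% of all genes. Brd3, of the BET family, was 3.06-fold higher (2185 and 6694), and its paralog Brd2 was at 11746 and 11850.2, nearly equal. Brd1 (787 and 896) and Brd8 (124 and 157) were within 2-fold.

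Subunits of SWI/SNF, which slides nucleosomes, were the role with the lowest share of higher genes among those with more than 10 members. Of 12 measured genes 1 (8.33%) was higher and 4 (33.3%) lower, against 22.1% and 22.6% of all genes. The median log2 difference was -0.19. Embryonic stem cells are known to carry a form of the complex built on Smarca4, Smarcc1 and Smarcd1, in place of Smarca2, Smarcc2 and Smarcd3 of differentiated cells. Grouped in this way with the values known, the 3 genes of the differentiated form were all lower. Smarca2, the ATPase BRM, was at 2678 in the parental cells and 995 in the generated cells, 2.69-fold lower. Smarcc2 was 2.15-fold lower (719 and 335) and Smarcd3 2.76-fold lower (648 and 235). Of their counterparts, Smarcd1 was 2.77-fold higher (107 and 296), the ATPase Smarca4 1.48-fold (1009.8 and 1499), and Smarcc1 was at 74.7 and 97.7, too close to the floor for a fold above its bound of 1.04. Apart from Smarce1, the measured subunits outside this grouping differed by less than 2-fold. Among them were Smarcb1 (4741 and 3345), Arid1a (1495 and 1037) and Smarcd2 (6301 and 10148), a paralog of Smarcd1 and Smarcd3. The partner Actl6a, an actin-related subunit of progenitor cells, was 2.54-fold higher (7051 and 17874), and its neuronal counterpart Actl6b was at 197 and 203.

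In NuRD, which joins remodelling to deacetylation, 2 of 6 genes (33.3%) were higher and none lower, against 22.1% and 22.6% of all genes. Chd4, its main ATPase, was 2.07-fold higher (2749.6 and 5699.7). Chd5, its form in neurons and testis, was 3.69-fold higher (95.6, just above the floor, and 352). Mbd3, needed for the complex in embryonic stem cells, was at 6478 and 11186, 1.73-fold higher. Mta1 (592 and 586) and Mta2 (11800.0 and 7691) were within 2-fold. For Mta3 a pair of probes went in opposite ways, one from 244 to 105 and the other from 1790 to 5832, so that its mean of 660.5 and 784 stands for neither.

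The other remodellers were spread around the middle, 3 (23.1%) higher and 2 (15.4%) lower of 13 above the floor, or 2 and 2 counting bounds. The shares over all genes were 22.1% and 22.6%. Beside Chd7, Ino80e, a subunit of the INO80 complex, was 3.91-fold higher (681 and 2664). Its ATPase Ino80 was at 741 and 384, 1.93-fold lower. The ISWI ATPases differed, Smarca1 being 2.13-fold lower (418 and 196) and Smarca5 nearly equal (4550.1 and 4401). Chd9 was 2.07-fold lower (748 and 362), Chd8 1.93-fold higher (1517 and 2930.4), and Bptf, the large subunit of NURF, was at 77.7 and 161, with a bound of 1.72-fold. The CHD genes thus ranged from the second largest positive difference of all members to a lower member.

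Of the 6 measured genes of DNA methylation 3 (50%) were higher and 1 (16.7%) lower by 2-fold or more. The shares over all genes were 22.1% and 22.6%. Both Uhrf1 and Dnmt1, which maintain this methylation through replication, were among the higher ones. Uhrf1, which finds hemimethylated DNA behind the replication fork, was at 4349 in the parental cells and 20184 in the generated cells, 4.64-fold higher. Dnmt1, the enzyme it recruits, was 3.40-fold higher (607 and 2068), and Mbd4, a DNA glycosylase of repair at methylated sites, 3.36-fold (226 and 757). Uhrf2, the paralog of Uhrf1, was 2.09-fold lower (4296 and 2056). Tet3, an oxidase of methylated cytosine, was at 286 and 251, and Mbd6 at 940.0 and 1457. Hells, a remodeller needed for DNA methylation and a partner, was 8.31-fold higher (1299.5 and 10798).

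Several of these genes are known to be made in S phase, and proliferation markers differed as well. Of 6 measured markers 3 were higher and 1 lower by 2-fold or more, and they summed to 8315 (parental) and 23585 (generated). Ccne1 (cyclin E1) was 5.66-fold higher (609.8 and 3454). The replication genes Chaf1b, also counted among the partners (770.1 and 5867, 7.62-fold), and Mcm5 (3504 and 10948, 3.12-fold) were higher. The mitotic marker Mki67 was 2.50-fold lower (2014 and 807), and Bub1 was at 268 and 291. None of the 6 was under the floor in either sample. The part of the cell cycle in the differences of Uhrf1, Dnmt1, Ezh2, Suv39h2 and Kmt5c was not tested.

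Of 11 other PHD finger genes 2 (18.2%) were higher and 3 (27.3%) lower, against 22.1% and 22.6% of all genes. Beside Phf2, Phf13, a reader of H3K4 methylation, was 3.05-fold lower (326 and 107) and Phf3 2.42-fold lower (462 and 191). Phf12, a subunit of a SIN3 complex, was 2.49-fold higher (1314 and 3276). Phf5a, a splicing factor subunit with a PHD-like fold, matched by name alone, was 3.21-fold higher (4429.8 and 14224). Among the PRDM genes Prdm14 alone passed 2-fold, and Prdm2, Prdm4, Prdm11, Prdm12 and Prdm15 were between 1.04-fold and 1.39-fold. Of the other ARID genes, which share a DNA-binding domain, Arid3b was at least 2.37-fold higher (52.9 and 222) and Arid4b, of a SIN3 complex, 2.18-fold (218 and 475).

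The 6 dim members were Prdm8, Prdm9, Kdm7a, Chd2, Arid5a and the pseudogene Phf8-ps. Uhrf1bp1 (791 and 1549) and Uhrf1bp1l (740 and 441), lipid transfer proteins matched through their names alone, were within 2-fold.

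Where several probes read a member, they mostly shared a sign and seldom the size. A total of 15 members had more than 1 probe, and 13 had at least a pair above the floor. In 11 of the 13 all such probes had the same sign, the exceptions being Mta3 and Tet3, of which a probe read 203 in both samples. Of the 4 members with a mean difference past 2-fold and several probes, Pcgf2 had both probes past it (log2 1.41 and 1.54), whereas Ezh1 (0.46 and 2.07), Kmt2d (0.75 and 1.61) and Setd1a (0.95 and 1.51) had 1 of 2.

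**Figure D5:**
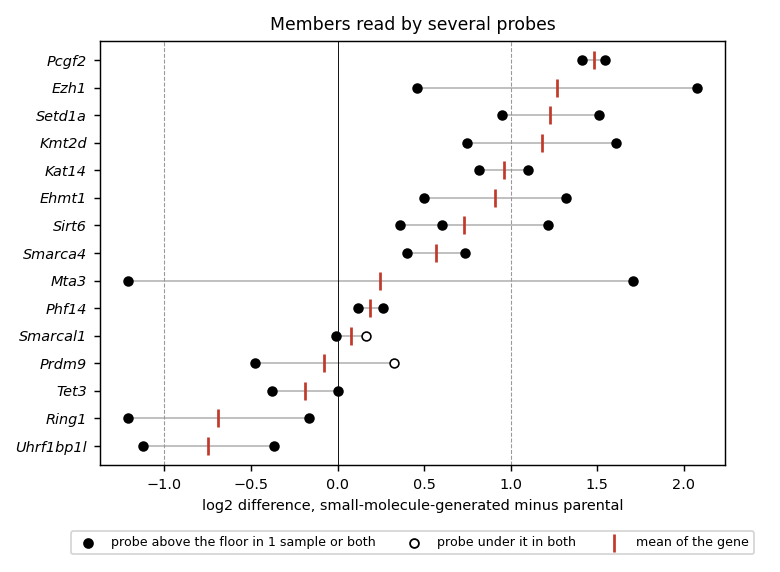
Log2 difference, generated minus parental cells (x axis), of each probe of the 15 members read by several probes (y axis). Filled circles are probes above the floor in at least 1 sample, open circles probes under it in both, red ticks the mean of the gene and dashed lines 2-fold. The probes of Pcgf2 lie together past 2-fold, and those of Mta3 lie on opposite sides of 0.

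The size of the differences also moved with the class of probe. Probe identifiers on this array fall into 3 classes by their prefix (PH, mMC and mMR). Over all genes the median log2 difference of probes above the floor was 0.25 in class PH, 0 in class mMC and -0.16 in class mMR. The 95 member probes of class PH had a median of 0.55, with 33 higher and 11 lower by 2-fold or more. Over all probes of that class above the floor, 25.7% were higher and 19.9% lower. The 49 of class mMC had a median of 0.00, with 12 higher and 13 lower, where the class shares were 19.3% and 26.4%. The 11 of class mMR had a median of 0.39, with 4 higher and 2 lower, where the class shares were 14.1% and 30.2%. Of the 6 probes that read a member as lower by 4-fold or more, 5 were of class mMC (those of Phf2, Smarce1, Phc2, Sirt2 and Kmt2c) and 1, that of Hdac7, of class PH. With each class centred on its own median 43 members were higher and 23 lower. The meaning of the prefixes counts as not given in the sources used here.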

How the data were processed

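Total RNA from 1 sample of each kind of cell was labelled with Cy5 and hybridised to the Mouse Whole Genome OneArray v2, as the labels state. What the authors deposited is 1 normalised intensity per probe and sample, linear in scale. Scanner, background correction and normalisation method count as not given in the sources used here. Both columns have nearly equal quantiles (medians 304.3 and 304.8), so a difference in total signal would not be seen. The number of arrays limits the precision. The series' design text names 3 replicates per sample. Whether a column is 1 array or a mean of them is unknown.

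Symbols came from the platform annotation, updated through Entrez identifiers with a RefSeq table (GRCm38.p6). Of 13989 probes 12380 had 1 symbol, 0 had several and 1609 had none, and all 162 member probes matched. Intensities were brought to log2 and averaged per gene (Python 3.11.15, pandas 2.3.3, numpy 2.4.6). With 1 sample per group there was no test and no p-value, and genes were counted by size. For a gene under the floor in 1 sample, the fold is the other sample's value divided by that floor, written as at least. Members and lists were chosen with earlier results of these data known. Genes named in full were members at 4-fold or more, the extremes of each role, all Polycomb, HP1, ASXL and DNA methylation members, and partners at 4-fold or more, and other genes were named after their values were seen. Promoter windows came from RefSeq on the same build. Alternatives were other normalisations (median, quantile, and lowess with span 0.3), other floors (10th percentile, median, none), an offset of 50, a 4-fold rule, the brightest probe of a gene, and counting probes. Scripts were first tested on simulated data holding 200 planted differences.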

Additional observations from a re-analysis of the deposited data

How the results depend on the processing

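Of 348 values of the 58 genes named by rule, 9 changed sign, 0 of them in a gene past 2-fold. Brd2, Cbx6, Cbx8 and Pcgf1, each at a log2 difference of 0.15 or less, went below 0 both with lowess and with probe classes centred (lowest -0.22), and Brd2 also with quantile normalisation. Counts of members kept within 1.5 times of the reported 44 higher and 23 lower under the alternatives run, except under the 4-fold rule, which left 15 higher and 6 lower. The other counts ran from 39 higher (floor at the median) to 49 (probes counted), and from 17 lower (offset of 50) to 26 (probes counted). The median log2 difference ran from 0.28 (lowess centring) to 0.51 (floor at the median). Lowess centring moved the median of all genes from 0.12 to -0.01, so the members' 0.28 compares with that value. Of 58 named genes, 3 came under 2-fold with the offset (Suz12, Pcgf3 and Smarca1) and 2 with probe classes centred (Pcgf3 and Uhrf2). Centring the classes was an alternative chosen after seeing the data, as was leaving out 4 genes matched by name alone (43 higher and 23 lower). No paired analysis was possible because each group has 1 sample. Signal near the floor limits the genes given as lower bounds.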
